A study of Coptotermes formosanus x Coptotermes gestroi and Coptotermes formosanus and Coptotermes gestroi with 67 samples.

Results

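Heads of termite workers about to molt (pre-molt) were compared with heads of workers between molts (inter-molt) in the Formosan subterranean termite, Coptotermes formosanus, in the Asian subterranean termite, Coptotermes gestroi, and in 2 crosses between them, labelled Hybrid F and Hybrid G. The study set workers of matings within a species beside workers of matings between the species over the molting cycle. Every pre-molt and inter-molt head was taken, 24 of the 67 samples. The 3 columns of each of these 8 groups held identical values (0 genes differed), so each group was used as 1 profile. That left 8 of the study's 24 profiles, 4 at each stage, paired by cross, where cross means any of the 4 kinds of worker. The remaining profiles were post-molt heads, and bodies (thorax and abdomen without the gut) at all stages. The labels do not give the number, age or colony of the workers, whether heads and bodies came from the same workers, or which species was the mother of each hybrid. No spread between workers or colonies could therefore be measured, and every p-value below describes how a difference recurred over the 4 crosses. Unless a cross is named, sets of 4 values stand in the order C. formosanus, C. gestroi, hybrids F and G.

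Expected counts (estimated reads per gene) summed to 21647794 to 29000241 in the inter-molt heads and to 29874089 to 36845585 in the pre-molt heads. The pre-molt head was the deeper one in all 4 crosses, by 1.27 to 1.55 times. Over the study, totals followed the number of identical columns, with 9861833 and 10080438 counts in the 2 groups with 1 column, 19497806 in the group with 2, and 21647794 or more in the groups with 3. The sources used here do not say whether a column holds a sum over its group. Of the 15950 genes, 1032 to 1445 had NA in place of a count in a head, in the same genes at both stages of each cross. Because the files pair no gene ID with a name, IDs are printed with no function, and neither a molting pathway nor a marker of head tissue could be looked up. In whole heads, fewer cells of a type and less RNA per cell cannot be told apart.

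In insects a molt is set off by a pulse of ecdysteroid hormone. The epidermis then detaches from the old cuticle, secretes a new one beneath it, and recycles the inner part of the old one before it is shed. The head carries the cuticle of the capsule, antennae and mandibles, along with the brain, jaw muscles and exocrine glands. Workers of Coptotermes molt repeatedly during their lives.

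Before a molt, transcript levels in worker heads differed from those between molts in a large part of the genes, and changes of at least 16-fold were more often increases. Of 12546 genes tested, 5100 differed (40.7%), 2555 higher (20.4%) and 2545 lower (20.3%) before the molt, at an adjusted p under 0.05 in edgeR's quasi-likelihood test with the cross as block. At least 4-fold changes were seen in 874 genes that rose and 438 that fell. At least 16-fold changes were seen in 450 genes that rose (3.59% of those tested) and 110 that fell (0.877%), and the settings of the processing tried gave 410 to 494 and 83 to 167. Of the 100 genes with the highest mean share of counts, 32 rose and 28 fell, 22 and 4 of them at least 16-fold. The mean was taken over heads of both stages, so a high level at either stage alone can place a gene among the 100. These genes were thus ranked on the values compared, and their split is a description only.

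The even split of higher and lower calls depended on the scaling. TMM scaling, which sets the typical gene to no change, gave factors of 1.11 to 1.28 to inter-molt heads and 0.792 to 0.944 to pre-molt heads. Scaled to total counts alone, 1409 genes were called higher (11.2%) and 5608 lower (44.7%), and the median log2 fold change over all genes moved from -0.03 to -0.46. All 2545 genes called lower with TMM remained so. Of the 2555 called higher, 1408 remained so and 268 had a log2 fold change below 0. Of the strongest changes, 449 of the 450 genes at least 16-fold higher, and all 110 at least 16-fold lower were called in the same direction under total-count scaling. The files hold no measure of RNA per head, so changes below are relative to the typical gene. Leaving out any 1 cross, which also leaves fewer residual degrees of freedom, lowered the number of calls. Without C. formosanus 3924 genes were called, and without C. gestroi 3815. Without Hybrid G, 3141 genes were called, 1723 higher and 1418 lower, and without Hybrid F 3476, of which 1593 were lower.

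**Figure D1:**
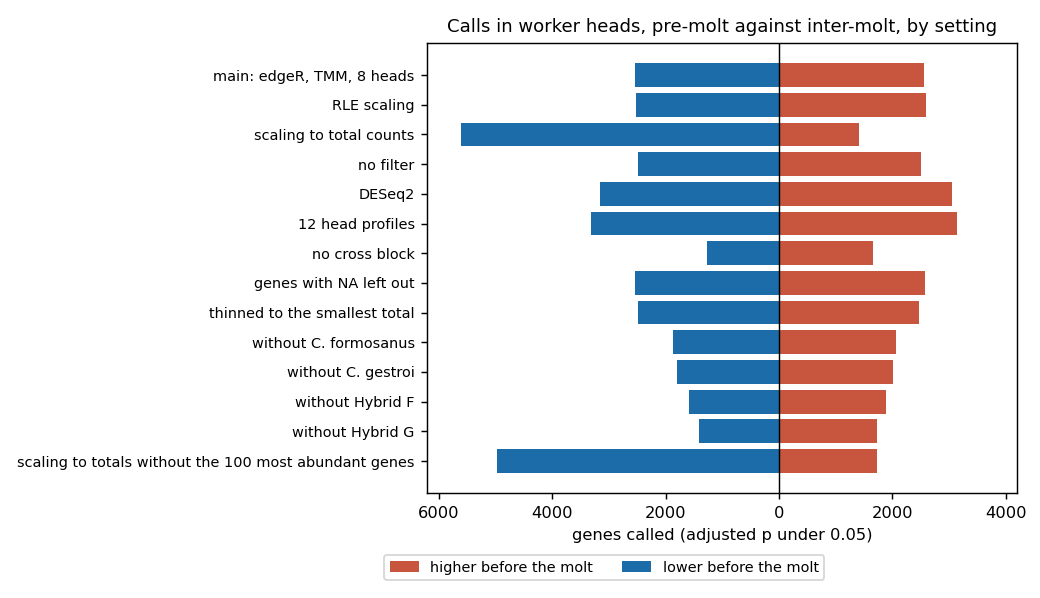
Number of genes called (adjusted p under 0.05) higher (right) or lower (left) in pre-molt than in inter-molt worker heads, with 1 bar pair for each way of processing. TMM scaling in edgeR (top bars) gave 2555 higher and 2545 lower, and scaling to total counts gave 1409 and 5608.

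Named here are the 2 genes in each direction with the largest fitted change among those called, of 1 sign in every cross, and with log2 CPM averaging 3 or more. CPM is the count scaled to depth, with TMM factors over all 24 profiles and no scaling to gene length. Cfor_08082 had 1 count in each of the 4 inter-molt heads, or 0.0294, 0.0377, 0.0253 and 0.0364 CPM. Before the molt it stood at 1628, 1212, 325 and 611 CPM. The stages did not overlap, and both parental species stood above both hybrids before the molt. Its fitted log2 fold change was 14.61 ± 0.35 (SE, edgeR adjusted p = 0.00011). With only 4 inter-molt counts, the ratio of pooled counts, 31054, had a 95% interval of 12128 to 113975 from counting error alone. In post-molt heads it was back at 0.0796 to 0.162 CPM. It rose in bodies too, by 12.62 ± 0.61 on the log2 scale (SE, edgeR adjusted p = 0.0058). The 4 inter-molt bodies held 1 count of it in all, so the size of the body change is even less certain than that of the head. The SEs of both changes come from the F statistic and do not show this uncertainty.

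Cfor_12028 stood at 0.353, 0.0755, 0.126 and 0.510 CPM between molts. Before the molt the values were 5968, 5944, 6360.45 and 4275 CPM, with no overlap between the stages and far less between the crosses than between the stages. The log2 fold change fitted to it was 14.51 ± 0.81 (SE, edgeR adjusted p = 0.00054). After the molt the heads held 25.1 to 45.2 CPM, below every pre-molt head and above every inter-molt head. Bodies held 0.0832, 0.181, 0.495 and 252 CPM between molts and 4962, 1868, 5754 and 3568 CPM before the molt, so the inter-molt body of Hybrid G stood far above the other 3 and the stages still did not overlap. The fitted body change was 12.50 ± 2.99 on the log2 scale (SE), and missed the threshold (edgeR adjusted p = 0.056). With Hybrid G included, the ratio of pooled body counts was only 55.2, against 13346 for Cfor_08082.

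Among the genes that fell, Cfor_08132 stood between molts at 572, 1388, 873 and 907 CPM. Before the molt it stood at 3.03, 9.15, 5.85 and 3.58 CPM. C. gestroi was the highest at both stages, the stages did not overlap, and the log2 difference within a cross ran from -7.94 to -7.19. The fitted log2 fold change was -7.48 ± 0.23 (SE, edgeR adjusted p = 0.00015). Post-molt heads held 1.36 to 16.4 CPM.

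Cfor_03103 stood between molts at 3425, 1658, 1591 and 1517 CPM. The pre-molt values were 64.4, 4.17, 34.6 and 1.497 CPM, so the crosses were far apart before the molt although no pre-molt head reached an inter-molt one. Within crosses the log2 difference ran from -9.91 in Hybrid G to -5.50 in Hybrid F. For the 4 crosses together it was -7.37 ± 1.14 (fitted log2 fold change, SE, edgeR adjusted p = 0.0077). Post-molt heads held 0.916 to 11.1 CPM. Post-molt values are given beside the others for these 4 genes and were not tested here.

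**Figure D2:**
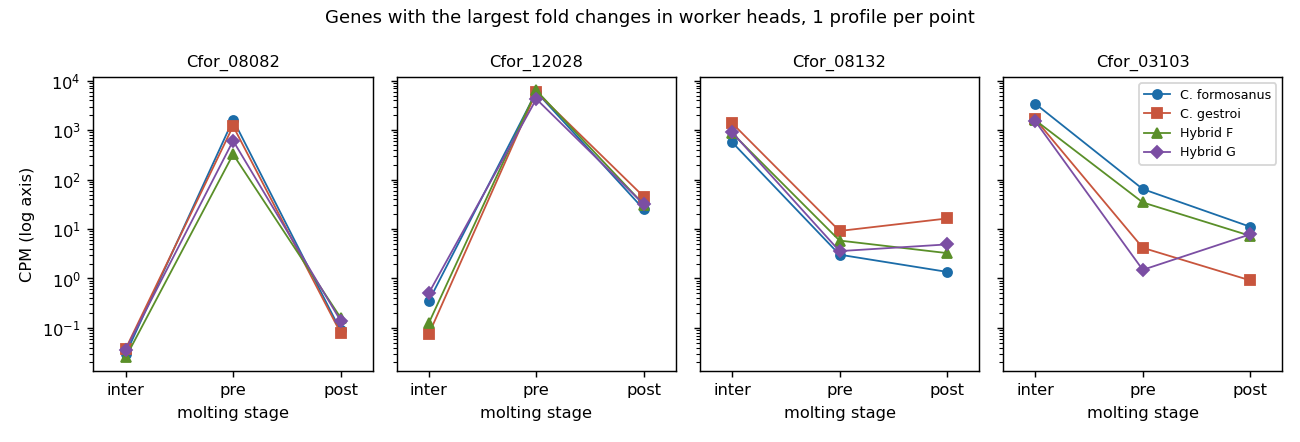
CPM (log axis) of the 2 genes with the largest increase and the 2 with the largest decrease among genes called in pre-molt heads, of 1 sign in every cross and with log2 CPM averaging 3 or more, at the inter-molt, pre-molt and post-molt stage, with 1 point per profile and 1 line per cross. Cfor_08082 goes from 1 count to 325 to 1628 CPM and back, while Cfor_08132 and Cfor_03103 stay low after the molt.

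Some transcripts counted in pre-molt heads had no count in inter-molt heads. In 25 genes the 4 inter-molt heads had no count and each pre-molt head had at least 10, and no gene showed the reverse. They were chosen on these counts, so their difference between the stages is a description. None of the 25 had NA in any of the 8 heads. Their pooled pre-molt level ran from 2.14 to 388 CPM with a median of 18.3. Against a floor of 3 counts over the 4 inter-molt heads they were at least 91.0-fold to at least 16474-fold higher. Of the 25, 15 also had no count in any inter-molt body, 21 were counted in all 4 pre-molt bodies, and 12 had over 3 counts in the 4 post-molt heads together. With all heads thinned to the smallest total, 25 genes and 0 genes met the same criteria. Allowing up to 3 counts over the 4 heads of the low stage gave 52 and 0 genes, and 54 and 2 after thinning.

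A larger share of counts lay in few genes in each pre-molt head than in the inter-molt head of its cross, with a difference that 4 pairs cannot carry past a threshold of 0.05. The 10 most counted genes took 12.1%, 12.5%, 11.3% and 13.6% of all counts between molts. Before the molt they took 12.2%, 13.8%, 20.2% and 19.8%. The 2 hybrid heads stood above all others, and C. formosanus differed least between stages. The mean difference was 4.10 percentage points ± 4.13 (SD, n = 4 crosses), positive in 4 of 4 crosses (exact sign-flip permutation test, two-sided, p = 0.13, the smallest that 4 pairs allow). Of the 10 most counted genes, 7 were shared by all 4 inter-molt heads, 6 by all 4 pre-molt heads and 2 by all 8. The genes that rose at least 16-fold were chosen on these values and are described only: they took 0.157% to 1.46% of the counts between molts and 26.2% to 32.9% before the molt. The inter-molt head of Hybrid G held the 1.46%, against at most 0.207% in the other 3. Without Hybrid G, the genes called with changes of 16-fold or more numbered 459 higher and 93 lower.

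**Figure D3:**
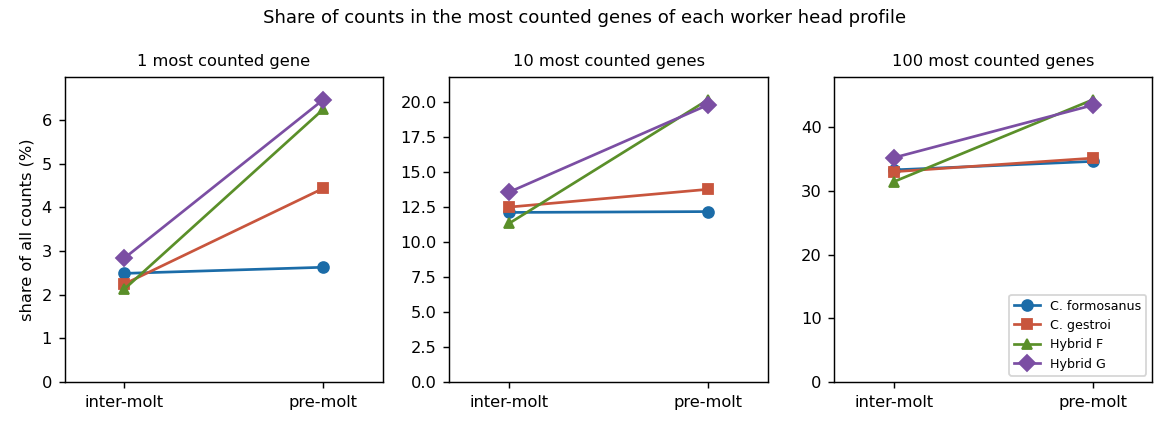
Percent of all counts taken by the 1, 10 and 100 most counted genes of each worker head profile, at the inter-molt and pre-molt stage, with 1 line per cross. The share of the 10 most counted genes goes from 11.3% to 20.2% in Hybrid F and from 12.1% to 12.2% in C. formosanus.

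Stage was the largest source of variation among the 8 heads. Of the variation of log2 CPM over the 8 heads (sums of squares), 55.8% lay between stages, 36.2% between crosses and 8.0% in neither. The first principal component (56.6% of the variance) set the inter-molt heads (-124.1 to -78.6) apart from the pre-molt heads (88.0 to 110.4), with the inter-molt head of Hybrid G nearest to the pre-molt ones. The second (25.3%) ran from C. gestroi (-113.4 and -95.8) through the hybrids (6.87 to 15.6) to C. formosanus (77.4 and 85.0), so each cross kept its place at both stages. The sign of the change was the same in all 4 crosses in 60.0% of all genes tested. It was the same in 5015 of the 5100 genes called (98.3%), a share that the test itself raises, since a call needs a change that recurs over the crosses. In 3322 of the genes called (65.1%) the log2 changes of the 4 crosses lay within 1 unit of each other. That share was not taken for the other genes. By another measure the genes called were close to the rest: the median SD of the log2 change over the crosses was 0.312 in them and 0.317 in genes not called. At least 4-fold increases in all 4 crosses were seen in 599 genes and decreases in 226. In 82 genes 1 cross was at least 4-fold higher and another at least 4-fold lower, 75 of them with at least 10 counts behind both. These differences within a cross rest on 1 profile a stage and have no test.

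Increases of at least 4-fold were more numerous in both parental species than in both hybrids, without a test of that difference. At least 4-fold higher levels before the molt were seen in 1198 (9.55%), 1108 (8.83%), 890 (7.09%) and 932 genes (7.43%). At least 4-fold lower levels were seen in 553, 570, 523 and 562 genes. Among the genes called higher, the mean change of the hybrids was smaller than that of the parental species in 1739 of 2555 (68.1%), and among those called lower in 1699 of 2545 (66.8%). Over all genes tested the change was smaller in the hybrids in 7896 of 12546 (62.9%), close to the share among the genes called. Among the strongest changes the 2 directions parted. The median log2 change of genes at least 16-fold higher was 6.01 in the hybrids and 6.87 in the parental species. That of genes at least 16-fold lower was -5.00 and -4.64. The hybrid values pool both hybrids. In the genes at least 16-fold higher, the inter-molt head of Hybrid G held 1.46% of its counts, against 0.190% in Hybrid F. The part of that in the lower hybrid median was not tested. Tested gene by gene over the 8 heads, the stage response of the hybrids differed from that of the parental species in 0 of 12546 genes (0%) by edgeR, with 683 at an unadjusted p under 0.05 and a smallest adjusted p of 0.514. DESeq2 called 97. Scored by species (C. formosanus, hybrids, C. gestroi in equal steps), the response differed in 0 of 12546 genes (0%) by edgeR, with 994 at an unadjusted p under 0.05 and a smallest adjusted p of 0.502, and DESeq2 called 104. These fits have 2 residual degrees of freedom, and a count of 0 does not show that the responses were alike.

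Genes with strong increases often carried consecutive ID numbers. Of the genes with a Cfor number, 309 rose at least 16-fold (3.32% of 9318). For 240 of the 309 the next number was also tested, and in 87 of these pairs (36.3%) the next gene rose at least 16-fold too. For genes that fell at least 16-fold (0.622%), the next gene did so in 8 of 38 pairs (21.1%). For all genes called higher the share was 28.2% against 22.8% of all Cfor genes. Over 7123 pairs of consecutive numbers the log2 fold changes correlated with r = 0.38 and rho = 0.11, across genes, which are not independent. The next gene can share reads with a near-identical copy, since estimated counts divide such reads, and the sources used here do not say whether numbers follow the genome, so the part of either was not tested.

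Runs of 5 or more consecutive numbers, each gene at least 16-fold higher, occurred 5 times and held 40 genes. No such run occurred among decreases, where the longest had 3 genes. Only 58 Cfor genes fell that far, against 309 that rose, so long runs are less likely among decreases. These runs were found by looking at the values and have no test of their own. The run with the most counts had 5 genes and summed to 2.15, 4.41, 12.9 and 182 CPM between molts, so Hybrid G carried most of its inter-molt mean of 50.3 ± 87.6 CPM (SD, n = 4 crosses), which was 6.50 ± 5.69 without it (n = 3). Before the molt it summed to 37355, 52295, 93372 and 93222 CPM, up to 8.10% of all counts of a head. Both hybrids stood above both parental species in this run before the molt, and post-molt heads held 21489.5 ± 8269 CPM. A run of 9 genes that ends at Cfor_12028 summed to 16.5 ± 9.33 CPM between molts and 9267 ± 2717 CPM before the molt, with log2 fold changes of 4.74 to 14.51. It stood at 239 ± 42.3 CPM in post-molt heads. The 2 runs of 10 genes differed after the molt. The first summed to 14.6, 22.5, 17.8 and 609.6 CPM between molts, again with Hybrid G far above the rest, for a mean of 166 ± 296 CPM and of 18.3 ± 4.002 without Hybrid G. It stood at 17146 ± 7455 CPM before the molt and 12819.9 ± 456 after it. The second stood at 4.73 ± 1.48 CPM between molts, 2025 ± 1206 before and 9.13 ± 1.01 after it (SD, n = 4 crosses). The run of 6 genes stood at 2.80 ± 3.46 CPM between molts (1.11 ± 0.878 without Hybrid G), 1179 ± 213 before and 19.9 ± 3.15 after the molt.

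**Figure D4:**
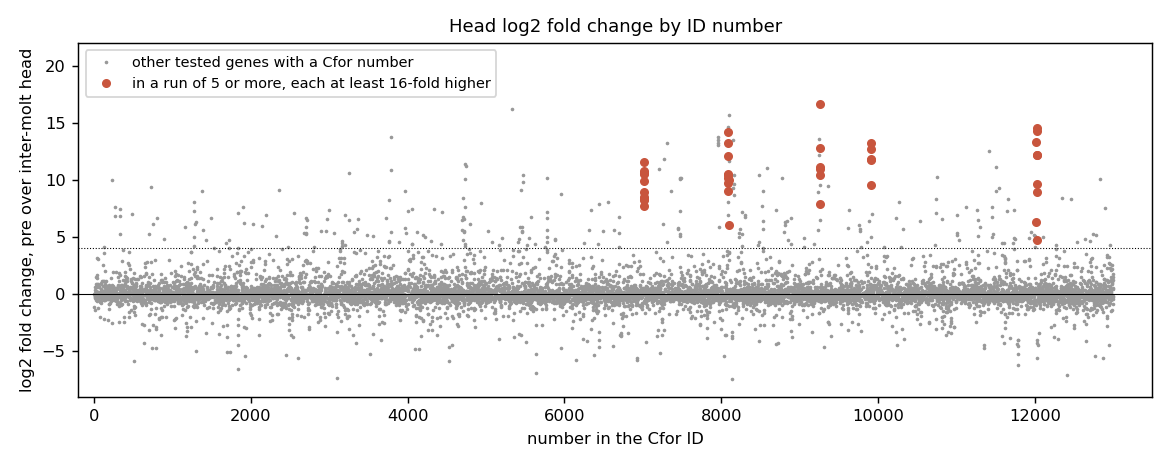
Fitted log2 fold change (pre-molt over inter-molt head) of each tested gene with a Cfor number against that number, with the dotted line at 16-fold. Red points are the 40 genes in 5 runs of at least 5 consecutive numbers that all rose at least 16-fold (3 genes with the highest numbers lie beyond the axis).

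Whether the head changes differed from those of the rest of the worker was asked with the bodies of the same 8 groups. The bodies alone gave 1922 of 12550 genes called (15.3%). Their depth was uneven: the inter-molt bodies of both parental species came from 1 column each, with 10080438 and 9861833 counts against 30484518 and 27041363 in the hybrids, and the pre-molt body of C. gestroi from 2 columns with 19497806. The head change differed from the body change in 161 of 13265 genes (1.21%, edgeR, 6 residual degrees of freedom), with the head change above the body change in 67 and below it in 94. That split was 78 to 68 with RLE scaling and 43 to 43 with total counts. In 106 of the 161 the mean changes had opposite signs, and 119 were also called in heads, where 40.7% of all 12546 genes tested were called. The 161 were picked for a difference between head and body, which by itself raises both counts, so they are descriptions. The count was 1921 by DESeq2, 62 with head and body of a cross and stage paired, and 0 in the hybrids alone. Without 1 cross it was 5, 7, 1 and 11. A gene outside the 161 is not shown to change alike in head and body.

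Cfor_07956 rose in both tissues and more so in the head. Heads held 0.529, 0.189, 0.354 and 0.255 CPM between molts. Before the molt they held 2264, 2592, 3221 and 2706 CPM. The stages did not overlap and the pre-molt heads were close to each other, with a fitted change of 13.02 ± 0.45 (log2, SE, edgeR adjusted p = 0.00019). Bodies between molts had no count in the parental species and 0.130 and 0.352 CPM in the hybrids, and before the molt 35.0, 31.7, 24.6 and 35.2 CPM. The difference was 5.19 ± 0.94 on the log2 scale (SE, edgeR adjusted p = 0.0499), and without any 1 cross the adjusted p was 0.0698 to 0.347. Its post-molt heads held 0.266 to 0.438 CPM, within the inter-molt range.

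Cfor_10175 fell in heads, from 326, 506, 472 and 316 CPM between molts to 47.2, 34.9, 85.2 and 66.2 CPM before the molt. No pre-molt head reached an inter-molt one, and the fitted change was -2.82 ± 0.31 (log2, SE, edgeR adjusted p = 0.0030). Bodies held little of it, 0.583, 0.181, 0.312 and 0.563 CPM between molts and 2.298, 1.97, 1.01 and 1.41 before the molt. The body values rest on few reads, 37 counts in all between molts. The log2 difference of head minus body change was -4.73 ± 0.47 (SE, edgeR adjusted p = 0.011). Without C. formosanus, Hybrid F or Hybrid G the adjusted p was 0.0579 to 0.116.

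In the other pair the body change passed the test and the head change did not. Heads held 5.71, 3.21, 5.21 and 3.82 CPM of Cfor_05035 between molts and 5.01, 1.68, 3.599 and 3.94 before the molt, with overlap between the stages (head adjusted p = 0.235 by edgeR). In bodies it fell from 1262, 10800.3, 1705 and 534 CPM to 11.7, 26.4, 3.82 and 6.08 CPM. The head change was above the body change by 7.28 ± 0.68 on the log2 scale (SE, edgeR adjusted p = 0.0087).

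Cfor_06096 stood in heads at 116.2, 70.4, 64.3 and 62.9 CPM between molts and 59.6, 37.1, 66.0 and 58.6 before the molt, with overlap between the stages (head adjusted p = 0.143 by edgeR). In bodies it rose: the inter-molt values were 1.66, 1.18, 1.17 and 4.79 CPM, and the pre-molt values 42.2, 43.7, 63.1 and 60.05 CPM lay in the range of the pre-molt heads. The log2 difference was -5.25 ± 0.48 (SE, edgeR adjusted p = 0.0087). Without C. formosanus, C. gestroi or Hybrid F neither it nor Cfor_05035 passed the threshold, with adjusted p of 0.0554 to 0.0757 and 0.0569 to 0.0880.

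**Figure D5:**
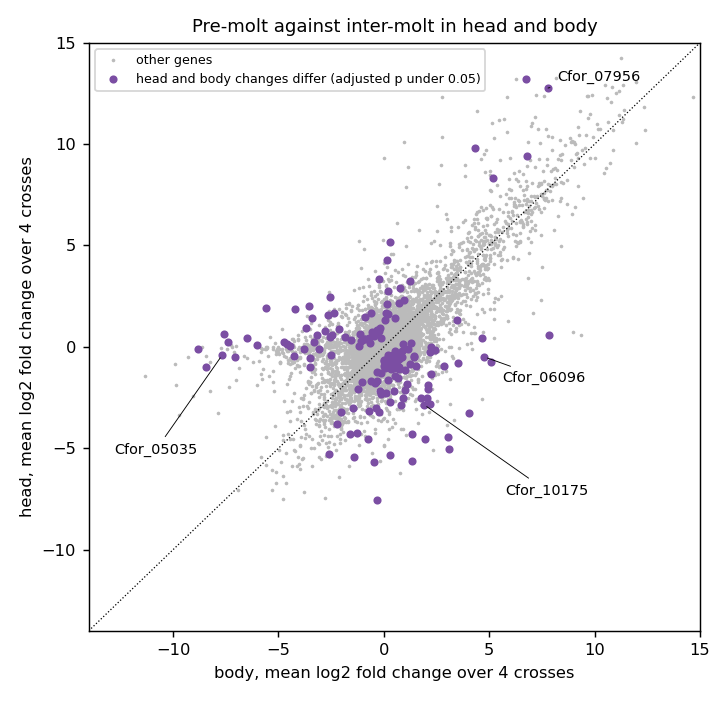
Mean log2 fold change over the 4 crosses (pre-molt over inter-molt) in heads against bodies for each gene tested in both, with the dotted line marking equal change. Purple points are the 161 genes whose head and body changes differed, and the 4 named genes are labelled.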

How the data were processed

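Trizol and silica columns gave the RNA for the mRNA libraries, per the labels' protocols. The submitters' processing notes name RSEM, Bowtie2 and DESeq2. Versions, roles, genome build and annotation were not given in the sources used here. Expected counts per gene were deposited by the authors without scaling (30.2% of the values in the 8 heads not whole), along with a gene length. Estimated counts divide reads among near-identical genes, so such genes are uncertain.

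Here 1 column per group was used, NA was read as 0 and values were rounded. filterByExpr by stage kept 12546 genes. TMM set the scaling, and R 4.3.3 with edgeR 4.0.16 ran the quasi-likelihood test (glmQLFTest after a robust glmQLFit). The model held cross and stage (3 residual degrees of freedom). Head against body used 16 profiles with cross by tissue as block, and hybrid status or species score multiplied stage in the 8 heads. Calls are at a Benjamini-Hochberg adjusted p under 0.05. SE was the size of the log2 fold change divided by the root of its F statistic. Log2 CPM used a prior count of 2. Floors (3 counts) and intervals cover counting error only. The tests were also run on simulated counts with far fewer changed genes than were called here, so that run does not vouch for the calls. The IDs named are the 2 per direction with the largest change among called genes with 1 sign in all crosses and log2 CPM averaging 3 or more. For hybrid status and species score none passed the test. Members, lists and rules were chosen with earlier results of these data known. Gene lists by product name could not be applied. Alternatives included RLE scaling, total-count scaling, no filter, DESeq2 1.42.0, the post-molt heads added, no cross block, genes with NA left out, thinning and leaving out each cross. Scaling without the 100 most abundant genes, and 2 settings of the head and body comparison (total counts, hybrids only), were chosen after seeing the data.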

Additional observations from a re-analysis of the deposited data

Results flagged for a closer look

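In 32 groups of 4 profiles (drawn from the named genes, shares of counts and totals), 4 had 1 profile far from the other 3. The rule takes about 1 in 20 as its chance rate, which was not checked for these groups. The named genes were picked for large changes, so 4 of 32 is not shown to be an excess. The groups did not take in every value of the named genes. Cfor_12028 in inter-molt bodies is not among the 4, although Hybrid G held 252 CPM there against 0.0832 to 0.495 in the other crosses. The inter-molt head of C. formosanus held 3425 CPM of Cfor_03103 against 1517 to 1658 in the other crosses, and 116.2 CPM of Cfor_06096 against 62.9 to 70.4. The inter-molt body of C. gestroi held 10800.3 CPM of Cfor_05035 against 534 to 1705 in the others, and that of Hybrid G held 4.79 CPM of Cfor_06096 against 1.17 to 1.66.

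The change from inter-molt to pre-molt differed between head and body in 161 genes by the test of the difference. Among the named genes the head minus body log2 difference was 7.28 for Cfor_05035, 5.19 for Cfor_07956, -5.25 for Cfor_06096 and -4.73 for Cfor_10175.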

How the results depend on the processing

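No paired analysis was possible because the columns of a group were identical, so replicate numbers pair nothing. Profiles were paired by cross instead of by a replicate block; without the cross as block 2931 genes were called in heads, 1657 higher and 1274 lower. Total-count scaling gave 1409 higher and 5608 lower, and totals without the 100 most abundant genes gave 4964 lower. Leaving out 1 cross gave 3141 to 3924 genes, 1723 to 2060 higher and 1418 to 1864 lower. The other settings of the head comparison stayed within 1.5 times of the main counts, and the 4 genes named there kept their direction and call in each setting run. The head and body comparison gave 1921 genes by DESeq2, 62 with cross by stage terms added, 86 with total counts, 0 in the hybrids alone and 1 to 11 without 1 cross; the cause was not tested. Cfor_07956 had an adjusted p of 0.0515 without a filter, 0.0890 with cross by stage terms added and 0.0519 with total counts. DESeq2 called 97 genes for hybrid status and 104 for species score, where edgeR called 0. The mean difference in the share of the 10 most counted genes was 2.52 to 5.44 percentage points without 1 cross. Depth was lower in all inter-molt heads; thinning to the smallest total gave 4950 genes.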

Other observations

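The deposited gene length had a median of 3795 among genes called higher, 2565 among genes called lower and 3049.5 among all tested. Of the 3137 longest genes 28.1% were called higher and 14.6% lower, and of the 3138 shortest 16.5% and 23.8%. The median log2 change was positive in the longest in all 4 crosses (0.05 to 0.11) and negative in the shortest (-0.17 to -0.05). Median levels rose with length as well, from 2.26 to 5.27 log2 CPM (not scaled by length), and their part in the calls was not tested. The strongest changes lay in shorter genes, with a median of 2544.5 for genes that rose at least 16-fold and 1876.5 for genes that fell at least 16-fold.

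Genes with a BGI_novel ID form an ID series beside the Cfor numbers. Of 3227 tested, 13.3% were called higher and 17.5% lower, against 22.8% and 21.3% of 9318 Cfor genes. At least 16-fold changes were seen in 4.37% higher and 1.61% lower, against 3.32% and 0.622%. Their median level was lower, at 1.58 against 4.85 log2 CPM. Of the 25 genes counted in pre-molt heads and absent from inter-molt heads, 15 had a BGI_novel ID, against 3949 of all 15950 genes. These shares are descriptions, with no test of the difference.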
